A study of Mus musculus with 6 samples.

Results

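The cadherin and protocadherin genes were described across the proximal and distal parts of the mouse forelimb bud, in buds labelled as a double knockout of the Polycomb genes Ring1A and Ring1B and in buds exposed to retinoic acid. Members were the genes whose single annotated symbol starts with Cdh or Pcdh and goes on with a digit, or with a, b or g and a digit. Cdh1 and Cdh5, which mark epithelium and endothelium, were left out of the set and are given apart. The rule found 53 of the 18193 genes on the array. Each gene was read by 1 probe set, namely the brightest one by mean log2 signal.

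The 6 arrays were single-channel Affymetrix arrays of RNA from CD1 forelimb buds at E10.5 (the embryonic day), 1 array for the proximal and 1 for the distal part in each of 3 conditions. The control buds carried no treatment and had the genotype Ring1A-/-, although another label of the same samples calls them WT. The double knockout buds (dKO) had the genotype Prx1-Cre, Ring1A-/- and Ring1Bfl/fl. By the genotype labels, control and dKO shared the loss of Ring1A and differed in Prx1-Cre and Ring1B. By the WT label of the control buds they would differ in Ring1A as well, and which label holds is not settled. Prx1-Cre is active in limb mesenchyme and not in the limb ectoderm. The retinoic acid buds (RA) were labelled WT and came from dams given all-trans retinoic acid by gavage, 100 mg/kg, at E10.25. RA and control therefore differed in the labelled Ring1A genotype as well as in treatment. How many embryos were pooled for an array is not stated in the labels used here.

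Cadherins are calcium-dependent adhesion proteins. The type I and type II (classical) cadherins bind the same molecule on a neighbouring cell and are tied to actin through the catenins, and in the limb bud they help mesenchymal cells to condense before cartilage forms. Protocadherins are a larger, more weakly adhesive branch. The clustered protocadherins give neurons their surface identity, while the delta protocadherins are expressed one by one in developing tissues and tune cell sorting and movement.

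Values are MAS5 signals, the linear intensity per probe set that the authors deposited. The median of each array (59.5 to 76.1) was used as a floor, and a signal below it was set to it before differences were taken. A log2 difference of 1 is a 2-fold difference, and a difference against a floored value is given as a bound ("at least"). Where a pair of values is given for a condition, the proximal array comes first. With 1 array in each group, differences between single arrays had no replicate check. A limma model with terms for condition and part was fitted over the 12147 genes that passed the floor somewhere. Its error, with 2 residual degrees of freedom, is the departure from one effect shared by both parts, not the spread between embryos, and its adjusted p-values (Benjamini-Hochberg) have to be read so. "Rose" and "fell" are used only for genes with an adjusted p under 0.05 in this fit. In whole tissue, fewer cells of a type and less RNA per cell cannot be told apart.

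Some facts of the whole series touch the results below. Rnf2, the gene of Ring1B, gave 2042 and 2070 in control, 2147 and 1887 on the arrays labelled dKO and 1941 and 2085 under RA. Ring1, the gene of Ring1A, gave 624 and 968, 402 and 578, and 419.8 and 245 in that order, so both control arrays, labelled Ring1A-/-, had more Ring1 signal than the RA arrays labelled WT. Neither pattern follows the labelled genotypes. Where these probe sets lie relative to the deleted sequence is not known here, so they do not check the labels, and dKO is used below as the name of the label. The proximal RA array stood apart, with correlations across genes of 0.927 to 0.951 with the other arrays, against up to 0.986 between others. Of 8 limb mesenchyme markers, 7 were above the floor on all 6 arrays and Fgf10 on 4, with a summed signal of 17816 to 21241 on control and dKO arrays, 13709 on the proximal RA array and 16377 on the distal RA array. The X-inactivation transcript Xist was between 3017 and 3688 without RA, and with RA it was 12.9 proximally and 29.5 distally. The Y-linked gene Eif2s3y was 2783 and 3064 with RA and no higher than 12.3 elsewhere. These transcripts mark female and male embryos, so embryo sex differed together with treatment, and its part in the results was not tested.

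Most of the family was quiet in the limb bud. Of the 53 members, 15 were above the floor on at least 1 array, which is 28.3%, against 66.8% of all genes on the array. On all 6 arrays 7 members were above the floor: Cdh2, Cdh6, Cdh11, Pcdh12, Pcdh17, Pcdh18 and Pcdh19. The other 38 members were at the floor on every array, and the highest signal among them was 69.1, for Pcdh9 on the distal dKO array. A signal at the floor does not show that a gene is silent, since probe sets differ in how well they hybridise.

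The classes differed in how many members were measured. All 4 type I cadherins (Cdh2, Cdh3, Cdh4, Cdh15) and all 5 delta-2 protocadherins (Pcdh8, Pcdh10, Pcdh17, Pcdh18, Pcdh19) were above the floor on at least 1 array. Of the 10 type II cadherins 3 were (Cdh6, Cdh11, Cdh22), of the 5 other cadherins 1 (Cdh13), of the 4 delta-1 protocadherins 1 (Pcdh7), and of the 3 remaining protocadherins 1 (Pcdh12). None of the 22 clustered protocadherins, all of the beta cluster, passed the floor, and their signals ran from 0.314 to 63.8. Genes of the alpha and gamma clusters are not among the members, because their symbols do not meet the rule or their probe sets carry several symbols. One gamma cluster gene with a probe set of its own, Pcdhgc4, was above the floor on all 6 arrays, at 197 to 303, with dKO differences of -0.25 and 0.20 and RA differences of 0.12 and 0.56.

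**Figure D1:**
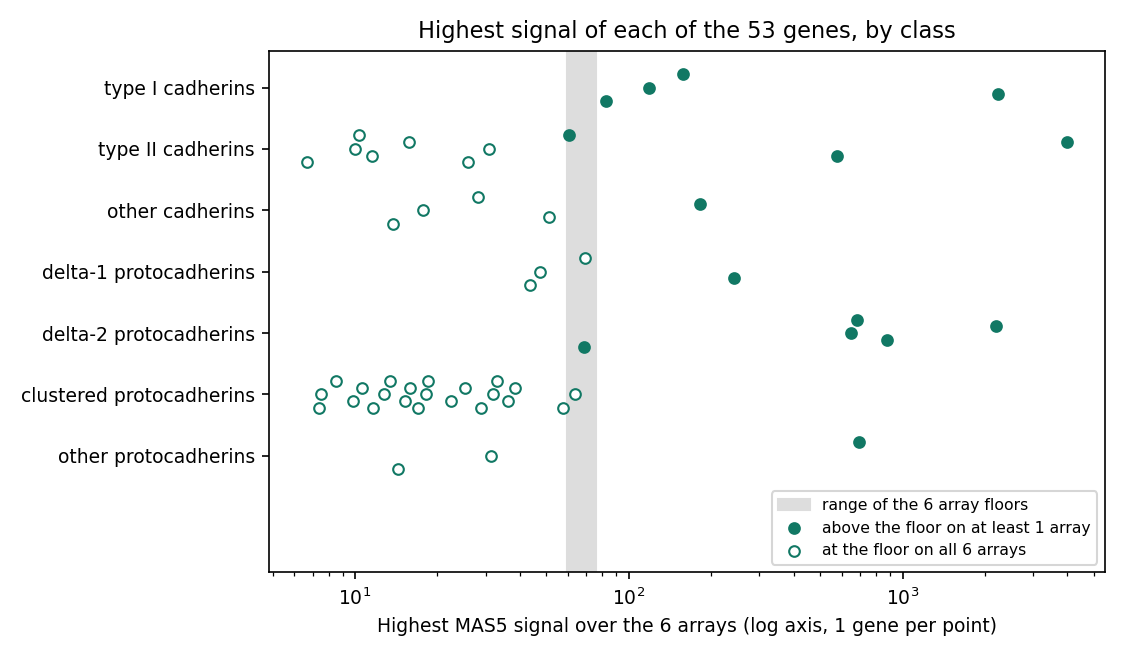
Highest MAS5 signal of each of the 53 genes over the 6 arrays (log axis, 1 point a gene), by class. Filled points are the 15 genes that passed the floor somewhere, open points the 38 at the floor on all arrays, and the grey band is the range of the floors. No clustered protocadherin is filled, and all type I cadherins and delta-2 protocadherins are.

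Pcdh8, known as paraxial protocadherin, acts in the cell movements that form the mesoderm and the somites. It gave a signal of 123 on the proximal and 41.0 on the distal control array, 603 and 259 on the dKO arrays, and 879.7 and 302 after RA. The distal control was the one value below the floor, all 4 dKO and RA signals were above both control signals, and within each condition the proximal signal was the higher one. In dKO it was higher by 2.30 on the log2 scale proximally and by at least 2.12 distally, and with RA by 2.84 and at least 2.35. It rose in dKO in the limma fit (log2 change 2.21 with an SE of 0.25, adjusted p = 0.0116) and rose with RA (2.59, SE 0.25, adjusted p = 0.0156). Both comparisons share the control arrays. Proximal over distal signal differed by at least 1.04 in control, by 1.22 in dKO and by 1.54 with RA, but the fitted position effect of 1.27 (SE 0.20) did not pass limma's threshold, with an adjusted p of 0.127.

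Limits of the Pcdh8 values lie in its probe set, one of a kind in which some probes may match other sequences. The second Pcdh8 probe set was dimmer, at 23.1 and 5.37 in control, 98.8 and 45.3 in dKO, and, after RA, 73.9 and 36.0, proximal first. It was above the floor on the proximal dKO and proximal RA arrays alone, and with the mean of both probe sets the limma adjusted p was 0.103 for dKO and 0.118 for RA. Under quantile normalization it was 0.0558 and 0.0718. Both probe sets had their lowest signals on the control arrays.

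Markers of other tissues moved beside Pcdh8 in part. Of 6 somite and body wall markers, 3 were past 2-fold higher on the proximal RA array, Meox1 by 3.08, Tcf15 by 1.20 and Pax1 by 1.11, given as log2 differences. On the same array 2 were lower, Meox2 by -1.63 and Tbx18 by -2.66. In proximal dKO Pax9 was higher by at least 2.09, and Meox2, Tbx18 and Pax1 were lower by -1.04, -1.12 and -1.13. The summed signal of the 6 was 4421 and 2528 in control, 3131 and 2601 in dKO, against 6129 and 1509 with RA. The list was thus split in each condition. Tbx6 and Mesp2, which define the presomitic mesoderm where Pcdh8 is strong, were at the floor on all 6 arrays. Meis2, a gene of the proximal limb bud, was 2941 and 1094 in control, 3456 and 2235 in dKO, and, after RA, 4890 and 3411, so it too was proximally higher in each condition. The part of these tissues in the Pcdh8 values was not tested.

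Pcdh8 lies on chromosome 14 beside other protocadherin genes, in the order Pcdh8, Pcdh17, Pcdh20, Pcdh9, with 1 protein-coding gene between Pcdh8 and Pcdh17, 2 between Pcdh17 and Pcdh20 and 0 between Pcdh20 and Pcdh9. The promoter windows of these neighbours are shown because Pcdh8 rose, Pcdh17 was lower on each dKO and RA array than on the control array of the same part, and Pcdh20 stayed at the floor. The windows run from 250 bases before to 50 bases after the RefSeq start (GRCm38.p6) and read 5′ to 3′ on the gene's strand, with each CG dinucleotide in capitals, since CG-rich promoters are the usual targets of Polycomb complexes. Pcdh8 is at chr14:79771263-79771562 on the minus strand, Pcdh17 at chr14:84443313-84443612 on the plus strand, and Pcdh20 at chr14:88471347-88471646 on the minus strand.
Pcdh8: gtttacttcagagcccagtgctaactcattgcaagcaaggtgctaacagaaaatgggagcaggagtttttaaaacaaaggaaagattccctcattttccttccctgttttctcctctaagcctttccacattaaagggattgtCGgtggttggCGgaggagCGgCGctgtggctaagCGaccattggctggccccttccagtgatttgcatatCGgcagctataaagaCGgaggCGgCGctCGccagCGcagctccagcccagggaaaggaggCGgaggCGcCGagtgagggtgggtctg
Pcdh17: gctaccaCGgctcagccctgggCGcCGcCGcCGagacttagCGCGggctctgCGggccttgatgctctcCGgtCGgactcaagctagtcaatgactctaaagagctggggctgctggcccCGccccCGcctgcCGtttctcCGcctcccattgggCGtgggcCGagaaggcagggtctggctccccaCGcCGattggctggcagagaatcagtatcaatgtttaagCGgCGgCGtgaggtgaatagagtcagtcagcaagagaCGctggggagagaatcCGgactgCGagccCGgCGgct
Pcdh20: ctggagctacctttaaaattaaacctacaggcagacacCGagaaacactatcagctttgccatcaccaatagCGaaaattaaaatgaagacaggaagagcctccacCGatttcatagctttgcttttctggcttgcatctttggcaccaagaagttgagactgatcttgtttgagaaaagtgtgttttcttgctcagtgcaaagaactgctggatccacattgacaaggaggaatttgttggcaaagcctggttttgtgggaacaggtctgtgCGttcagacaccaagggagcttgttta

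The Pcdh8 window holds 14 CG, the Pcdh17 window 26 and the Pcdh20 window 4. Of all 32851 windows, 36.3% hold at least as many CG as Pcdh8, 16.9% as many as Pcdh17 and 68.6% as many as Pcdh20, and the median is 7. Pcdh9, also at the floor, has windows with 18 and 19 CG that are not printed, so among these neighbours a gene at the floor can hold more CG than Pcdh8. Windows were found for 20 members. The 9 of them that were above the floor held 7 to 38 CG (median 18), and the 11 at the floor held 2 to 21 (median 8). AGGTCA, the core motif of nuclear receptors, which was searched on both strands, was in the window of 1 member, Cdh18, and in 16.3% of all windows. TGACAG, the core bound by Meis proteins, was in the windows of 4 members (Cdh6, Cdh7, Cdh15, Cdh20) and in 19.2% of all windows. Neither motif was in the windows printed above, which says only that these letters are not there. Binding of Ring1B at these promoters was not measured in these arrays.

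In the proximal dKO comparison, 2 of 14 measured members were at least 2-fold higher (Pcdh8, Cdh13) and 0 lower. Among the 11580 genes measured there, 4.07% were at least 2-fold higher and 0.363% lower. In the distal comparison, 3 of 14 members were higher (Pcdh8, Cdh13, Cdh6) and 0 lower, against 5.32% and 0.524% of 11646 genes. The median log2 difference of the measured members was 0.16 proximally and 0.30 distally, against 0.02 and 0.01 over all genes. The middle values were those of Cdh3 (0.09) and Cdh2 (0.23) proximally, and of Cdh3 (0.27) and Cdh22 (0.33) distally. The proximal Cdh3 and distal Cdh22 differences are positive only because the dKO floor was above the control signal, so both medians rest in part on the floors. These medians depended on the processing: under quantile normalization the distal one was -0.02 against -0.01 over all genes, and with a floor at 50% of the array median the proximal one was 0.02 against 0.03. In the limma fit 2.21% of genes rose and 0.115% fell in dKO, and 2 of 15 members rose (Pcdh8 and Cdh13) and 0 fell.

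Cdh13 (T-cadherin) is an unusual cadherin that is held in the membrane by a lipid anchor and has no cytoplasmic tail. The control buds gave 50.2 proximally and 72.5 distally, the dKO buds 182 and 162, and the RA buds 118 and 95.6. The proximal control lay below the floor, and the dKO arrays held the highest signals, with RA between them and control. In dKO it was higher by at least 1.51 proximally and by 1.16 distally, and rose in the limma fit (1.34, SE 0.21, adjusted p = 0.0302). With RA it was higher by at least 0.89 and by 0.40, which limma did not call (0.64, adjusted p = 0.238). Its 3 other probe sets were at the floor. The limma call was lost under array median scaling (adjusted p = 0.133), quantile normalization (0.152), the lower floor (0.0622) and no floor (0.0777), and with the mean of its probe sets the gene was at the floor.

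Cdh4 (R-cadherin), a type I cadherin best known in the retina and brain, had control signals of 47.1 and 79.5, dKO signals of 121 and 158, and RA signals of 61.5 and 28.0. The dKO signals were the highest in both parts, and both RA signals were at the floor. The dKO difference was at least 0.93 proximally and 0.99 distally, just under 2-fold, and limma did not call it (0.96, SE 0.18, adjusted p = 0.0512). Of the other Cdh4 probe sets, 1 was at the floor on all arrays and 1 passed it on the proximal dKO array alone, at 85.1. The Cdh4 pattern thus rests on 1 probe set. Without the RA arrays limma called the dKO effect (adjusted p = 0.00399), on 1 residual degree of freedom. Leaving out the proximal RA array alone gives the same dKO estimate, because the 1 RA array left is fitted exactly. It is therefore no second check. Of 7 neural and Schwann cell markers on the array, 2 were past 2-fold higher in proximal dKO (Nefl, Nefm) and 3 in distal dKO (Nefl, Nefm, Stmn2). The neurofilament gene Nefl gave 220 and 143 in control, 709 and 762 in dKO, whereas RA gave 128 and 170. Elavl4 differed by 0.09 and 0.25 in dKO, Tubb3 was lower distally by -0.54, and Sox10 and Elavl3 were at the floor on all arrays. The sum of the 7 was 739.6 and 619.7 in control, 1559 and 1428 in dKO, against 458 and 453 with RA. Whether Cdh4 or Cdh13 signal came with nerve tissue was not tested.

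Cdh6 (K-cadherin), a type II cadherin of the embryonic kidney and neural crest, differed between the conditions in another way. It gave 311 and 248 in control, 368 and 575 in dKO, against 88.7 and 138 with RA. The dKO signals were the highest of the 6 and the RA signals the lowest, with no overlap between conditions. Against control the differences were 0.24 and 1.22 in dKO, and -1.81 and -0.85 with RA. The limma fit called neither (dKO 0.73, adjusted p = 0.452, and RA -1.33, SE 0.31, adjusted p = 0.141). Without the dKO arrays limma called the RA effect (adjusted p = 0.00714), on 1 residual degree of freedom. There the SE was 0.35, no smaller than with all arrays, and the p-value used only the spread pooled over genes. Without the RA arrays limma called the dKO effect (0.0459), also on 1 residual degree of freedom. With only the proximal RA array left out, the dKO effect was not called. In that fit, with 1 RA array, the RA effect on Cdh6 was -1.09. Its second probe set was above the floor on no array, so the Cdh6 pattern rests on 1 probe set. On chromosome 15 the order is Cdh6, Cdh9, Cdh10, Cdh12 and, past 1 other protein-coding gene, Cdh18. Cdh9, Cdh10 and Cdh18 were at the floor, and Cdh12 is not among the members found.

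The dKO and RA arrays were also set against each other with the control arrays left out, a contrast read after its values were seen. Limma then called 1.87% of genes higher and 9.46% lower with RA than in dKO, on 1 residual degree of freedom. Of 15 members 3 were called, all lower with RA: Cdh6 by a log2 difference of -2.06 (SE 0.35, adjusted p = 3.99e-05), Cdh4 by -1.08 (SE 0.23, adjusted p = 0.000829) and Cdh2 by -0.88 (SE 0.25, adjusted p = 0.0151). Both RA values of Cdh4 were floors, so its difference is a bound. Pcdh8, the one member that limma called in both conditions, differed between them by 0.39 (SE 0.36, adjusted p = 0.576).

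**Figure D2:**
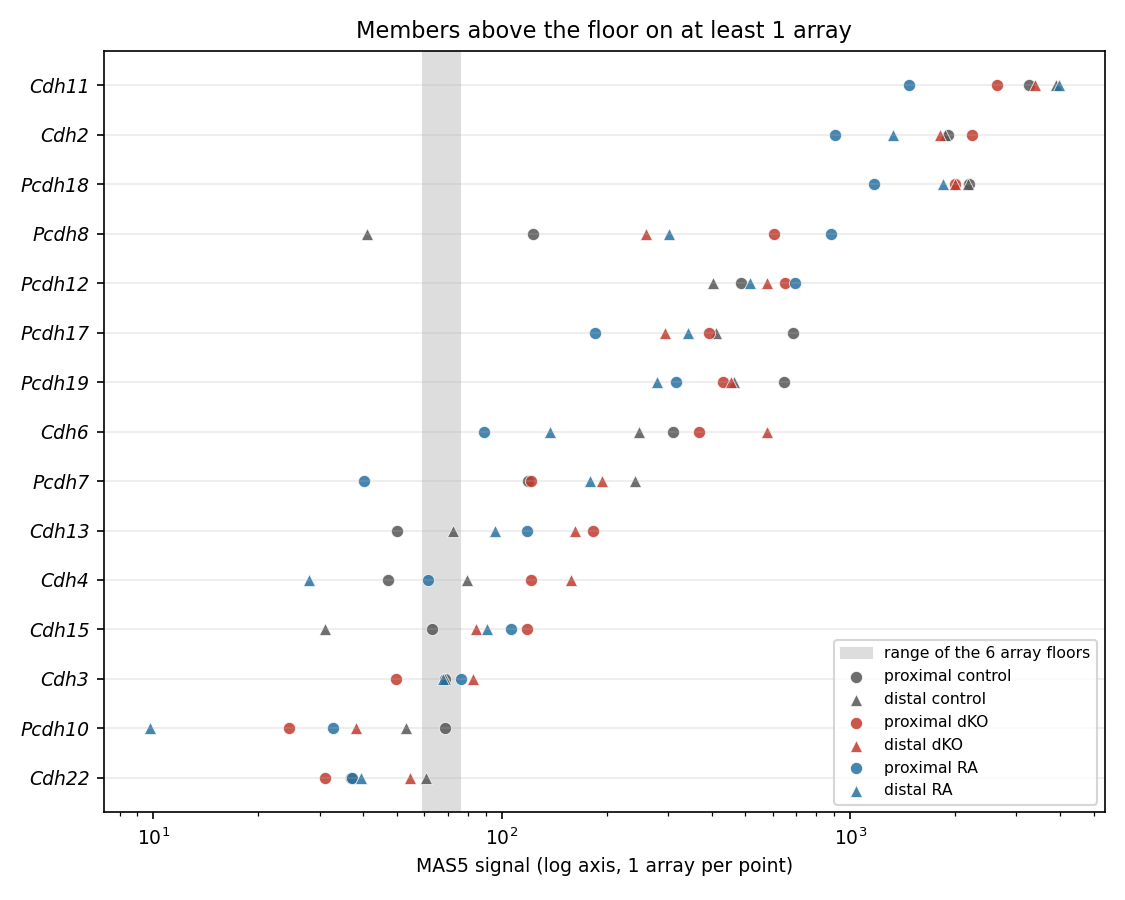
MAS5 signal (log axis) of the 15 measured genes, 1 point an array, with circles for proximal and triangles for distal. Grey is control, red dKO and blue RA, and the band is the range of the floors (59.5 to 76.1). Pcdh8 has both control points lowest, and Cdh6 has its RA points lowest and its dKO points highest.

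In the proximal RA comparison, 1 of 13 measured members was at least 2-fold higher (Pcdh8) and 5 were lower (Cdh2, Cdh6, Cdh11, Pcdh17, Pcdh19), against 3.69% higher and 6.8% lower of 11521 genes. The members' median log2 difference was -0.91, against 0.01 over all genes. With a floor at 50% of the array median it was -0.01, over 22 measured members of which 7 were lower, and under quantile normalization 3 were lower, since Cdh2 (-0.98) and Pcdh19 (-0.85) did not reach 2-fold. In the distal part 1 of 14 was higher (Pcdh8) and 0 were lower, against 2.16% and 2.13% of 11388 genes, with a median of -0.12 against -0.04. In the limma fit 0.305% of genes rose and 0.239% fell with RA, and of 15 members Pcdh8 rose and 0 fell. At an unadjusted p under 0.05 there were 9 members, Pcdh8, Cdh13 and Cdh15 with positive and Cdh2, Cdh6, Pcdh7, Pcdh17, Pcdh18 and Pcdh19 with negative effects, and 2032 of all genes. All 5 differences past 2-fold downward lay on the proximal RA array, the one that stood apart. The limb mesenchyme markers were lower there too, with a median of -0.79 over 8 genes and a range from -0.26 (Prrx1) to -1.62 (Msx1). The part of the array or of the mesenchyme share in these differences was not tested.

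Cdh11 and Cdh2 are classical cadherins of mesenchyme. Cdh11 (OB-cadherin) marks loose mesenchyme, and its signal was 3269 and 3888 in control, 2630.1 and 3394 in dKO, and, after RA, 1478 and 3979.6. The proximal RA value was the lowest of the 6 and the distal RA value the highest. The differences were -0.31 and -0.20 in dKO, -1.15 proximally with RA and 0.03 distally. Limma did not call the RA effect (-0.56, adjusted p = 0.367). The other Cdh11 probe set gave -1.94 and -0.55 with RA.

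Cdh2 (N-cadherin), which mediates the condensation of limb mesenchyme, gave 1902 and 1868 in control, 2230.3 and 1812 in dKO, whereas RA gave 902 and 1325. Both RA signals were below all 4 others. The RA differences were -1.08 proximally and -0.50 distally, not called by limma (-0.79, adjusted p = 0.197), and the other Cdh2 probe set gave -0.58 and -0.43. In dKO the differences were 0.23 and -0.04.

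Pcdh17, Pcdh18 and Pcdh19 are delta-2 protocadherins best known from neural circuits. Pcdh18 gave 2197 and 2182 in control, 1992 and 2002 in dKO, against 1169.7 and 1846 with RA. It was nearly flat between control and dKO and lowest on the proximal RA array, with RA differences of -0.91 and -0.24 (limma -0.58, adjusted p = 0.261). Its other probe sets, above the floor on all 6 arrays, were lowest on the distal RA array instead. One gave RA differences of -0.41 and -0.70, the other -0.43 and -0.44. Pcdh17 gave 683 and 412 in control, 394 and 293 in dKO, and, after RA, 185 and 343. The proximal control was the highest value and the proximal RA value the lowest. The Pcdh17 differences were -0.80 and -0.49 in dKO, and -1.88 and -0.27 with RA, and limma called neither effect (adjusted p = 0.713 and 0.275). Without the RA arrays limma called the dKO effect (adjusted p = 0.0245), on 1 residual degree of freedom. Its other probe set gave smaller RA differences, -0.32 and -0.01.

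Pcdh19, an X-linked gene whose mutation causes an epilepsy mainly in females, gave 648 and 465 in control, 431 and 456 in dKO, whereas RA gave 317 and 279. Both RA signals were the lowest, by -1.03 and -0.74 against control, and limma did not call this (-0.88, adjusted p = 0.189). Its other probe sets gave -0.90 and -1.22 proximally but 0.22 and -0.10 distally, so they do not share the distal difference. The RA arrays are also those with Xist below the floor and Eif2s3y high, so for an X-linked gene treatment and embryo sex cannot be told apart here.

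**Figure D3:**
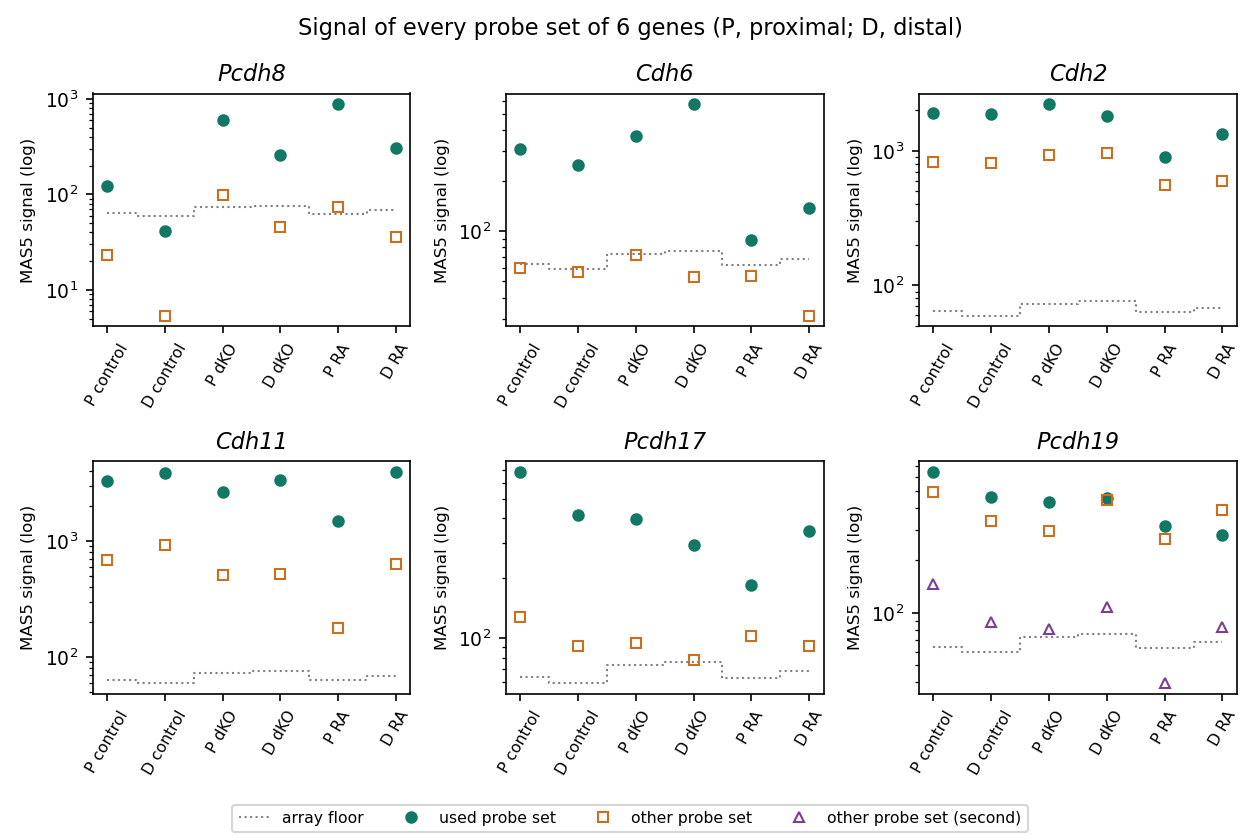
MAS5 signal (log axis) on each array for every probe set of 6 genes, with the probe set used as filled circles, other probe sets as open symbols and the array floor as a dotted line. For Cdh2 and Cdh11 all probe sets are lowest on the proximal RA array, while the other probe sets of Pcdh8, Cdh6 and Pcdh19 differ from the ones used in level or pattern.

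Pcdh12 (VE-cadherin-2), a protocadherin of endothelium and placenta, gave 484 and 404 in control, 649.9 and 578 in dKO, against 696 and 515 with RA. Every dKO and RA signal was above both control signals. The differences were under 2-fold, at 0.42 and 0.52 in dKO and 0.52 and 0.35 with RA, and limma called neither. The sum of 7 endothelial markers was 2788 and 2123 in control, 3956 and 2907 in dKO, and, after RA, 3899.8 and 2176. Cdh5 (VE-cadherin) was 78.3 and 70.8, 111 and 74.1, and 104 and 69.4. The endothelial share of Pcdh12 was not tested.

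Cdh15 (M-cadherin) is the cadherin of skeletal muscle. Its signal was 62.9 and 31.1 in control, both at the floor, 118 and 84.4 in dKO, whereas RA gave 106 and 90.5. All 4 dKO and RA signals passed the floor, with differences of at least 0.89 and 0.50 in dKO and at least 0.73 and 0.60 with RA, not called by limma (dKO 0.70, adjusted p = 0.149, and RA 0.67, adjusted p = 0.186). Without the RA arrays limma called the dKO effect (adjusted p = 0.0315), on 1 residual degree of freedom. Both control values in that fit were floors, and Cdh15 entered the fits only through the dKO and RA arrays. That call is therefore no independent support. The 6 muscle precursor markers summed to 4017 and 1245 in control, 5694 and 2452 in dKO, against 4128 and 816 with RA, so on the distal RA array the sum was below control while Cdh15 was above it. There Pax3, Lbx1 and Met were lower by -0.98, -1.52 and -0.75, and Pax7 was higher by at least 1.35. The muscle share of Cdh15 was not tested.

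The other measured members were near the floor. Cdh3 (P-cadherin), an epithelial cadherin, gave 68.8 and 68.8 in control, 49.6 and 82.9 in dKO, and, after RA, 76.2 and 67.6. Pcdh10 reached 68.8 on the proximal control array and Cdh22 60.6 on the distal control array, and both were at the floor elsewhere. Differences plotted for Cdh22, and for Cdh3 and Pcdh10 in the proximal dKO comparison, have no meaningful sign, since the floor of the other array was higher than the signal that passed.

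**Figure D4:**
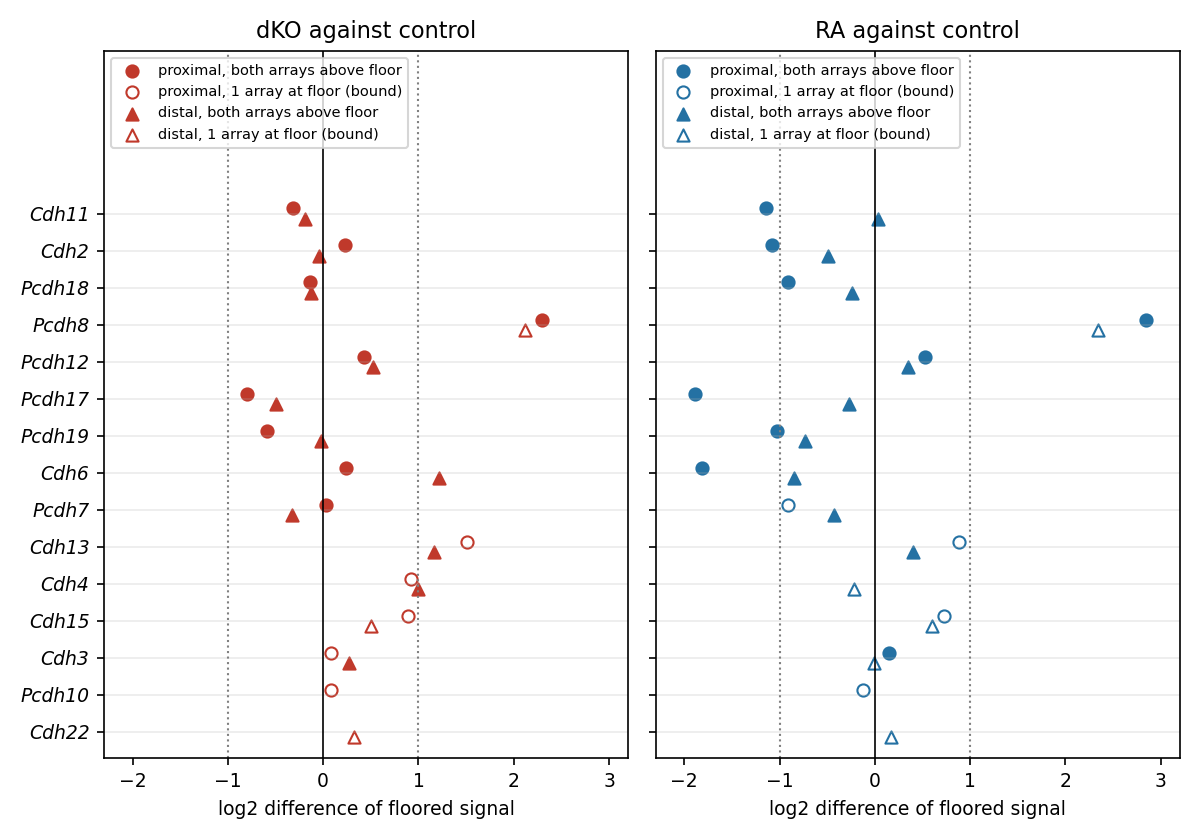
Log2 difference of floored signal for the 15 genes, dKO against control on the left and RA against control on the right, with circles for proximal, triangles for distal, open symbols for bounds and dotted lines at 2-fold. Pcdh8 is past 2-fold in both parts on both sides, Cdh13 in both parts in dKO, and the 5 genes left of the lower line are so in the proximal RA comparison.

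Between the parts of the control bud, 1 of 14 measured members was at least 2-fold higher proximally (Pcdh8) and 1 lower (Pcdh7), against 1.35% and 1.4% of 11391 genes. In dKO 1 of 13 was higher (Pcdh8) and 0 lower, against 0.515% and 0.722% of 11642. With RA 1 of 12 was higher (Pcdh8) and 2 were lower (Pcdh7, Cdh11), against 4.4% and 6.16% of 11493. The members' medians were 0.05, -0.01 and -0.20, against 0.00, 0.01 and 0.06 over all genes. Limma called 0% of genes higher and 0% lower proximally, and no member, while 1156 genes and 3 members (Pcdh7, Pcdh8, Cdh11) had an unadjusted p under 0.05. With the pair of arrays of any condition left out, limma called Pcdh8 and Pcdh7 for position. The limma adjusted p-values were 0.00442 to 0.0257 for Pcdh8 and 0.00489 to 0.0322 for Pcdh7. Cdh11 was called without the control arrays (0.0251) and without the dKO arrays (0.0442).

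The limma fits with arrays left out, each on 1 residual degree of freedom, called more of all genes too. The members they add have to be read against that. Their prior degrees of freedom, the weight given to the spread pooled over genes, were above the 4.64 of the fit to all arrays. They were 12.7 without the RA arrays or the proximal RA array, 37.0 without the control arrays and infinite without the dKO arrays. These fits thus took most of the error from the pooled spread, and without the dKO arrays all of it. For dKO they called 11.9% of genes without the RA arrays and 11.8% without the proximal RA array, where 6 and 5 of 15 members were called. For RA they called 4.42% without the dKO arrays and 9.64% without the proximal RA array, with 2 and 3 members. For position they called 2.42% without the control arrays, 2.91% without the dKO arrays, 3.55% without the RA arrays and 3.53% without the proximal RA array, with 3, 3, 2 and 2 members. All 15 members tested had passed the floor.

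Pcdh7, a delta-1 protocadherin, had its higher signal distally in each condition, opposite to Pcdh8. It gave 119 and 242 in control, 121 and 193 in dKO, whereas RA gave 40.2 and 179. The proximal RA value was below the floor and the distal values were all above the proximal ones. The proximal minus distal differences were -1.03, -0.67 and, as a bound, -1.51, and the fitted position effect was -1.07 (SE 0.21, limma adjusted p = 0.180). Of the other Pcdh7 probe sets, 1 was at the floor on all arrays and 1 passed it on the distal control array alone, at 61.0. The Pcdh7 pattern thus rests on 1 probe set. With the mean of its probe sets the control difference was -0.49. Cdh11 was lower proximally by -0.25, -0.37 and -1.43 in control, dKO and RA (fitted -0.68, adjusted p = 0.432).

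Few genes for the proteins that work with cadherins were past 2-fold, and against the shares of all genes given above such counts are no result about the list. Of 14 genes for catenins and linked proteins, 12 were above the floor. In dKO 0 were 2-fold different in either part, and limma called 0 in any comparison. Ctnnb1 (beta-catenin) ran from 7726 to 8146 over the 6 arrays. With RA, Jup (plakoglobin) was the one past 2-fold, with 327 in the proximal control and 145 on the proximal RA array, a difference of -1.17, and the list's median there was 0.15.

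Of 22 other cadherin superfamily genes on the array, 15 were above the floor, and limma called 0 in any comparison. In the proximal comparisons 1 of 13 measured genes was at least 2-fold higher in dKO, and with RA 1 of 12 was higher and 2 lower. Over all genes these shares were 4.07%, 3.69% and 6.8%. In the distal RA comparison 1 of 14 was lower, against 2.13%. Between the parts 2 of 14 were lower proximally in control, against 1.4%. With RA 1 of 12 was higher proximally and 4 lower, against 4.4% and 6.16%. The remaining counts were 0, and the list was not tested as a set. Past 2-fold in dKO was Dsg2, a desmosomal cadherin, with 379.8 proximally in control and 861 in dKO, a difference of 1.18. In the proximal RA comparison Celsr1 was higher by 1.55, and Fat4 and Dsc2 were lower by -3.12 and -1.70. Fat4, a giant cadherin of planar polarity, gave 739 and 702 in control, 509.8 and 621 in dKO, against 84.8 and 248 with RA, and was the one gene of this list also past 2-fold distally, at -1.50 (limma adjusted p = 0.072). Cdh1 (E-cadherin), which marks the ectoderm, gave 1186 and 2262 in control, 917 and 1777 in dKO, and, after RA, 716 and 1864, with the distal signal higher in each condition.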

How the data were processed

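Total RNA of 6 forelimb bud samples, 1 for each part and condition, was hybridised to 1-colour Affymetrix arrays. The authors deposited a linear signal intensity per probe set, made with MAS5 per the submitters' processing notes (version not given in the sources used here). The 2% trimmed mean of each array was 500, as computed from the files. The number of arrays limits the precision, and no array is a replicate of another.

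Of 45101 probe sets, 34958 carry 1 symbol in GEO's platform annotation, 932 several and 9211 none. All 53 members matched a RefSeq gene. Signals were floored at the array median, and log2 differences and 2-fold counts were taken between single arrays. The additive limma model (limma 3.58.1, trend, Benjamini-Hochberg over 12147 genes) had a prior of 4.64 degrees of freedom. Values on every array are given for members past 2-fold in both parts in the same direction, or between the parts in at least 2 of 3 conditions, or called by limma, and for Pcdh8, Cdh2, Cdh3, Cdh4, Cdh6 and Cdh11. Others are named where they are past 2-fold in 1 part or lead their class, and Pcdh12, Pcdh18 and Cdh15 were given in full after their values were seen. Members and lists were chosen with earlier results of these data known. Alternatives were another scaling, quantile normalization, other floors, the mean of a gene's probe sets, and arrays left out.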

Additional observations from a re-analysis of the deposited data

Results flagged for a closer look

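With the probe set used, Pcdh17 differed between parts in opposite directions, with a proximal minus distal log2 difference of 0.73 in control and -0.89 with RA. The other Pcdh17 probe set, above the floor on all 6 arrays, showed no reversal, with 0.47 in control, 0.29 in dKO and 0.16 with RA. The reversal thus rests on 1 probe set, and with 1 array in each group it was not tested.

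Some probe sets of the protocadherin clusters carry several symbols and were used in no comparison. One of them, annotated to 14 symbols of the alpha cluster, gave a signal of 104 on the proximal and 141 on the distal dKO array, above the floor, and at most 18.9 on the control and RA arrays. Another, annotated to 9 symbols, gave 64.7 on the proximal RA array, just above the floor of 63.0 there, against 19.8 and 15.9 in control. No gene can be named from either.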

How the results depend on the processing

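With 1 array in each group no difference has a replicate error, and weak signals near the floor decide several counts. No 2-fold or limma-called difference of a single gene changed sign under the alternatives run. Of 106 values of single genes, 81 kept their side of the threshold and 25 lost it. Values that were not above the floor with the mean of probe sets are not counted, although they were lost too. These were Cdh13 in both dKO comparisons, its limma call, Pcdh7 between RA parts and Pcdh8 between control parts. The 81 also hold limma fits with arrays left out. Medians over the measured members did change sign: under array median scaling from 0.16 to -0.03 in proximal dKO, from 0.30 to -0.06 in distal dKO, from 0.05 to -0.05 between control parts and from -0.01 to 0.05 between dKO parts. The distal dKO median was -0.02 under quantile normalization, the proximal dKO median -0.01 and the dKO position median 0.02 with the mean of probe sets, and the RA position median went from -0.20 to 0.13 with the lower floor.

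Members past 2-fold in dKO numbered 2 proximally, and 1 with the mean of a gene's probe sets. Distally they were 3, and 1 under array median scaling, 5 with a floor at 50% of the median and 0 with the mean of probe sets. With RA distally the count was 1, and 2, 3 and 0 under those settings. Between the control parts it was 2, and 1 under array median scaling, 1 under quantile normalization, 0 without a floor (50 added) and 0 with the mean of probe sets. With RA proximally the 6 became 4 to 9, and 3 of the 5 lower members stayed past 2-fold under quantile normalization. Array median scaling moved the median of all genes by -0.19 and -0.36 in proximal and distal dKO, by -0.20 in distal RA, by -0.10 between control parts and by 0.12 between RA parts. The members' medians moved by the same amounts, so under this scaling their distance from all genes did not change.

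Limma called 2 members in dKO, and 1 (Pcdh8) under array median scaling, with the lower floor and without a floor, and 0 under quantile normalization and with the mean of probe sets. For RA it called 1, and 0 under those last settings. The adjusted p of Pcdh8 ranged from 0.00901 to 0.103 for dKO and from 0.0145 to 0.118 for RA.

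With a pair of arrays left out, limma called 6 members for dKO, 2 for RA and 2 to 3 for position. The fit without the proximal RA array was chosen after seeing the data and is no separate check of dKO or position. Without the RA arrays limma also called Cdh4, Cdh6 and Cdh15 for dKO with positive effects, and Pcdh17 with a negative one. Without the proximal RA array alone Cdh6 was not called for dKO. Without the dKO arrays limma also called Cdh6 for RA, with a negative effect. None of these added genes was called in the fit to all arrays. For position Pcdh8 and Pcdh7 passed in each of these fits. These fits also called larger shares of all genes, as given above. The model holds condition as a term, so the parts are compared within each condition, and there was no block by replicate number because each group has 1 array.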
